A study of Mus musculus with 4 samples.

Results

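CTCF regions at the end of a single protein-coding gene made up 2204 of 16128 regions in the list labelled CTCF knockout and 3097 of 20043 regions in the control list. A region was counted, and is called a member, when its summit, the position of highest signal, lay within 1 kb of the start or the end of exactly 1 protein-coding gene in RefSeq gene spans for GRCm38.p6 (mm10). Chromatin immunoprecipitation and sequencing (ChIP-seq) with an antibody against CTCF had been run on isolated left ventricular heart muscle cells (cardiac myocytes) of C57BL/6 mice, with 1 library from hearts labelled CTCF_knockout and 1 from hearts labelled control. Each library came from the pooled cells of 3 hearts, and its input library was not used here as a sample of its own. The allele, the promoter of any Cre driver, and the age and sex of the animals are not stated in the labels used here. Each genotype had 1 library and no replicate, which allows no test between genotypes, and the 95% intervals given for shares and differences cover counting error only.

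CTCF is a DNA-binding protein with a row of zinc fingers that reads a long motif, and at many of its sites it stops the cohesin ring that extrudes chromatin loops. It is known for insulating genes from enhancers across a boundary and for bringing promoters and distant elements together. A sizeable fraction of its sites in mouse tissues lies at promoters, just before the transcription start, and a smaller one lies where genes end.

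The list labelled knockout held 13.7% of its regions at a single gene end (Wilson interval 13.1 to 14.2) and the control list 15.5% (15.0 to 16.0). The number of such regions in the list labelled knockout was 0.712 of the number in the control list, against 0.822 for all other regions. Of the control regions at a single gene end, 1960 overlapped a labelled-knockout region by at least 1 bp and are called kept, which is 63.3% (61.6 to 65.0). The other 1137, or 36.7%, had no region called there in the second library, where the background over all control regions was 31.0%. In the opposite direction 235 of the 2204 labelled-knockout regions at a single gene end (10.7%, 9.44 to 12.02) overlapped no control region, against a background of 14.2% over the whole list. The regions lay at 2041 of the 21900 protein-coding genes (9.32%) in the list labelled knockout and at 2752 (12.6%) in the control list. Both lists shared 1858 of these genes, 183 had a region in the list labelled knockout only, and 894 had one in the control list only.

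The promoters with the strongest kept regions and those with the strongest regions called only in the control are shown first, with the bases around the summit. The sequences are from the RefSeq promoter table (GRCm38.p6), 5′ to 3′ on the strand of the gene. Each covers up to 60 bases on both sides of the control summit and stops at the annotated start, and only regions with the summit at least 25 bases before that start were used. Capitals mark a 12-letter pattern from the core of the known CTCF motif, CCA followed by any 2 bases and AGNNGGC, searched on both strands. The first 4 are the strongest kept regions that carry it in the stretch shown. They lay at Rapgef1, which encodes an activator of the small GTPase Rap1 (chr2:29619589-29619709, plus strand), at Fam133b (chr5:3543725-3543832, plus strand), at Rint1, which encodes a protein of vesicle transport (chr5:23787582-23787702, plus strand), and at Rplp0, which encodes the stalk protein P0 of the large ribosomal subunit (chr5:115559248-115559368, plus strand).
Rapgef1: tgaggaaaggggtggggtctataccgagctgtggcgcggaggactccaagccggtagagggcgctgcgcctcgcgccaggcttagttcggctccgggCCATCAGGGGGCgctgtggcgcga
Fam133b: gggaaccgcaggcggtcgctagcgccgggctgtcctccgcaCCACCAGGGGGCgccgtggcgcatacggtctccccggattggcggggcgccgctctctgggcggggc
Rint1: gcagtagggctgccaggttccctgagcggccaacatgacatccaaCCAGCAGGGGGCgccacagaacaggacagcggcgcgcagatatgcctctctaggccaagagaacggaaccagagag
Rplp0: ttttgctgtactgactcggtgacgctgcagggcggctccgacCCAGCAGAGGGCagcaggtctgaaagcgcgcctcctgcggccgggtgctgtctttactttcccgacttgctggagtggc
All 4 had the pattern on the gene's own strand. Its centre lay 9.5 bp from the summit at Rint1, 12.5 bp at Rplp0, 13.5 bp at Fam133b and 42.5 bp at Rapgef1.

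A kept region did not need this pattern. Vps36, which encodes a subunit of the endosomal sorting complex ESCRT-II (chr8:22192719-22192832, plus strand), Nipsnap2, which encodes a mitochondrial protein (chr5:129724926-129725046, plus strand), and Sh3glb1, which encodes the membrane-curving protein endophilin B1 (chr3:144720452-144720572, minus strand), had the strongest kept regions of this kind whose promoter window lacked it. In the next lines capitals mark the shorter 7-letter pattern AGNNGGC on either strand.
Vps36: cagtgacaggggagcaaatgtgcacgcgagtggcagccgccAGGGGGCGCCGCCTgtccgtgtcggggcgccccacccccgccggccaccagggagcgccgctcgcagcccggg
Nipsnap2: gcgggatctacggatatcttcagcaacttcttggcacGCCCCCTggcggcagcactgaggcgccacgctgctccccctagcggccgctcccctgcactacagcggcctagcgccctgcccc
Sh3glb1: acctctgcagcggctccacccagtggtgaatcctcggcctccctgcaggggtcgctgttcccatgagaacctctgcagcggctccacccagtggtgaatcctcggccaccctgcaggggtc
In the Vps36 stretch a match on one strand abuts a match on the other, which makes the longer run of capitals, and the Sh3glb1 stretch holds neither pattern. Under the same conditions the strongest control regions that were not kept were at Wdr18, which encodes a protein of ribosome assembly (chr10:79960023-79960143, plus strand), at Hs3st1, which encodes a heparan sulfate sulfotransferase (chr5:39644690-39644810, minus strand, before a start that lies within the gene span), and at Fam220a (chr5:143548501-143548621, plus strand).
Wdr18: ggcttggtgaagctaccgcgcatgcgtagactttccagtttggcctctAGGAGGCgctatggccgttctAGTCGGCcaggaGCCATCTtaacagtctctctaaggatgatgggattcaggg
Hs3st1: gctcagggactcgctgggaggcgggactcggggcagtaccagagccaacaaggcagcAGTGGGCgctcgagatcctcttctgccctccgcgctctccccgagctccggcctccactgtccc
Fam220a: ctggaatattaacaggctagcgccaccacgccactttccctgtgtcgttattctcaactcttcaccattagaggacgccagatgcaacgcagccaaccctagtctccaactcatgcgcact
None of these 3 stretches held the 12-letter pattern, Wdr18 and Hs3st1 held the 7-letter one, and Fam220a held neither. These 3 were taken by strength whatever their pattern, while the kept stretches were chosen with or without it. The printed stretches therefore do not compare the classes.

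Across all promoters that could be read, the 12-letter pattern was more frequent under kept regions than under regions that were not kept. A promoter window here runs from 250 bases before an annotated start to 50 bases after it. The summit lay in such a window of the region's own gene for 533 labelled-knockout and 711 control regions at a single gene end. The pattern was in 83 of the 533 windows (15.6%, 12.7 to 18.9) in the list labelled knockout and in 91 of the 711 windows (12.8%, 10.5 to 15.5) in the control list. It was in 498 of all 21263 windows of protein-coding genes (2.34%), and in 1.87% of the windows of genes with no region at a single end in either list. Among the control windows, 80 of 511 kept ones had it (15.7%, 12.8 to 19.1), against 11 of 200 that were not kept (5.50%, 3.10 to 9.58), a difference of 10.2 percentage points (5.16 to 14.3). The centre of the nearest match lay at a median of 24.5 bp from the control summit. The 7-letter pattern, which 63.9% of all protein-coding windows held, separated the classes less, with 85.1% of kept and 80.0% of other windows and a difference of 5.13 points (-0.85 to 11.8). The median GC content was 62.0% in the kept windows and 63.3% in the others, against 56.3% over all protein-coding windows.

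**Figure D1:**
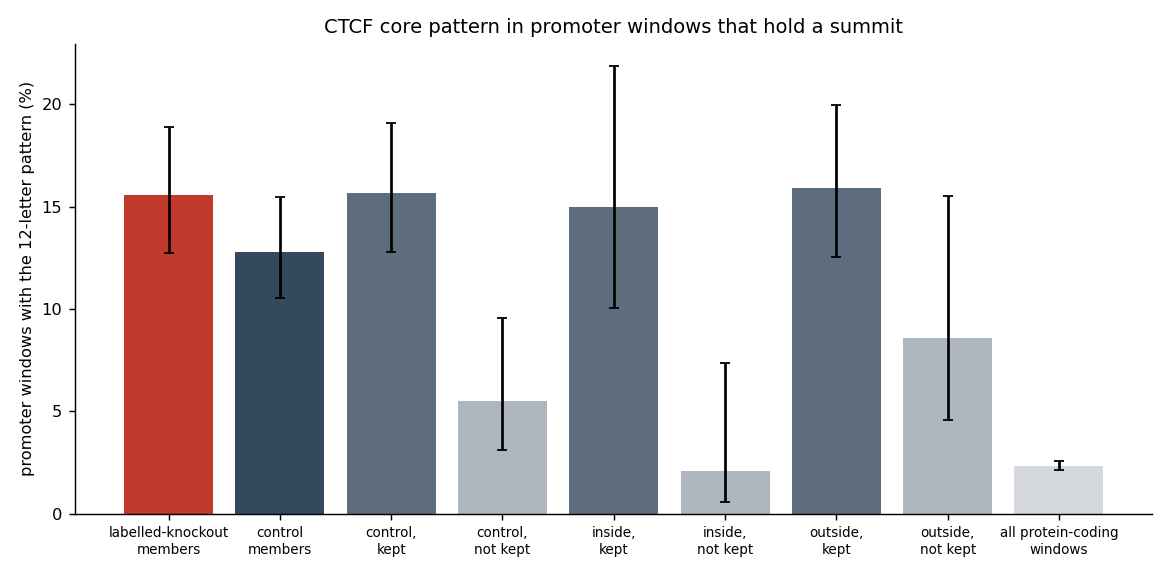
Share of promoter windows, in percent, that held the 12-letter CTCF core pattern on either strand, for windows that held the summit of a region at a single gene end and for all windows of protein-coding genes. Error bars are 95% Wilson intervals. The share was 15.7% under kept control regions, 5.50% under control regions that were not kept and 2.34% over all protein-coding windows.

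Read the other way, windows with the 12-letter pattern kept their region in 80 of 91 cases (87.9%) and windows without it in 431 of 620 (69.5%), a difference of 18.4 points (9.41 to 24.8). The regions in windows with the pattern were also stronger, with a median control fold enrichment of 10.5, against 8.198 in windows without it. Fold enrichment is the authors' ratio of signal to local background and was compared only within a list. After weighting over 10 bins of control fold enrichment the difference was 7.78 points (2.11 to 13.5). Summits inside the gene were read here only if they also lay in a promoter window, and the annotated start of that window can itself lie within the gene span. These regions therefore do not stand for all regions inside genes. Where the summit lay inside the gene, 21 of 23 regions with the pattern were kept and 119 of 212 without it (56.1%). Where it lay outside, 59 of 68 with the pattern and 312 of 408 without it (76.5%) were kept. With minus without the pattern was 35.2 points inside the gene (15.9 to 44.4), or 18.3 weighted (8.39 to 28.3). Outside, where most windows with the pattern lay, it was 10.3 (-0.47 to 17.8), or 3.33 weighted (-2.10 to 8.75), and both intervals cover 0. Among windows without the pattern the kept share was thus 20.3 points lower inside the gene than outside (interval of inside minus outside -28.1 to -12.5), and among windows with it the difference was 4.54 points with a wide interval (-14.6 to 16.4).

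The side of the gene end on which the summit lay separated kept from other regions in the whole set as well. Inside the gene 814 of 1531 control regions were kept (53.2%), and outside it 1146 of 1566 (73.2%), so that inside minus outside was -20.0 points (-23.3 to -16.7). This comparison needs no strand and covers all 3097 control regions. Regions outside the gene took a larger share of the list labelled knockout, with 1294 outside (58.7%) and 910 inside (41.3%), while in the control list 50.6% were outside and 49.4% inside. The regions inside were weaker in the control, with a median fold enrichment of 6.37 against 7.77 outside. Weighted over 10 bins of control fold enrichment, inside minus outside was -10.2 points (-13.3 to -7.15). The kept share was lower inside in 10 of the 10 bins. In the bin with fold enrichments of 4.49 to 5.18, for example, 17.2% of the 256 regions inside and 34.2% of the 158 outside were kept, and in the strongest bin 146 of 149 inside and 292 of 292 outside. Regions called in the list labelled knockout were found in the control about equally often on both sides, at 88.8% inside and 89.7% outside (difference -0.93 points, -3.63 to 1.66).

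**Figure D2:**
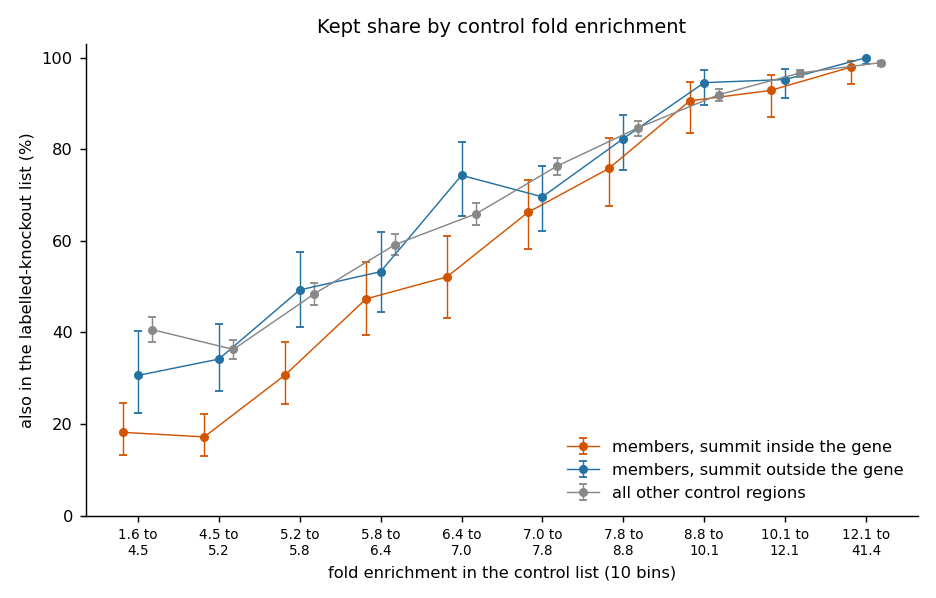
Share of control regions, in percent, that overlapped a labelled-knockout region, in 10 bins of control fold enrichment (horizontal axis), for regions at a single gene end with the summit inside the gene, those with the summit outside it and all other control regions. Error bars are 95% Wilson intervals. Regions inside the gene were below those outside in each of the 10 bins, and all 3 groups approached 100% in the strongest bin.

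Strand was known for 77.0% of the regions in the list labelled knockout and 77.3% of those in the control list, through the promoter table, and for these the start and the end of the gene could be told apart. At gene starts 1118 of 1841 control regions were kept (60.7%), and at gene ends 405 of 552 (73.4%), a difference of -12.6 points (-16.8 to -8.21), or -11.1 (-14.8 to -7.29) after weighting over fold enrichment. At starts, 451 of 926 regions with the summit inside the gene were kept (48.7%), against 667 of 915 just outside the start (72.9%), a difference of -24.2 points (-28.4 to -19.8) as counted and -10.4 (-14.5 to -6.28) after weighting. At gene ends 69.1% of 256 regions inside and 77.0% of 296 outside were kept. That difference of -7.89 points (-15.3 to -0.49) became -4.82 (-11.7 to 2.09) with weighting, an interval that covers 0. Starts were below ends on both sides of the boundary after weighting. Start minus end was -20.4 points inside the gene (-26.7 to -13.7), or -14.05 weighted (-20.1 to -7.97), and -4.13 outside it (-9.46 to 1.70), or -6.03 weighted (-10.6 to -1.42). Where the strand was not known, 53.3% of 349 regions inside and 70.7% of 355 outside were kept.

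At base-pair scale the regions gathered just upstream of the start in both lists. The 100 bp before the start held 250 regions in the list labelled knockout and 295 in the control list. The first 100 bp inside the gene held 97 in the list labelled knockout and 153 in the control list, and the next 100 bp held 51 in the list labelled knockout and 149 in the control list. Within 100 bp of the start on either side lay 28.6% of the labelled-knockout regions assigned to a start and 24.5% of the control ones. The kept share of control regions was 82.7% (78.0 to 86.6) in the 100 bp before the start, 60.8% (52.9 to 68.2) in the first 100 bp inside and 34.9% (27.7 to 42.8) in the next 100 bp, where 52 of 149 were kept. Further inside it was 51.9% at 200 to 400 bp and 42.7% at 400 to 600 bp. The median control fold enrichment fell in the same order, at 10.1 before the start, 7.73 in the first 100 bp inside and 5.61 in the next 100 bp. Around gene ends there was no such crowding. The 100 bp just inside a gene end held 10 control regions, and no bin there held more than 64.

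**Figure D3:**
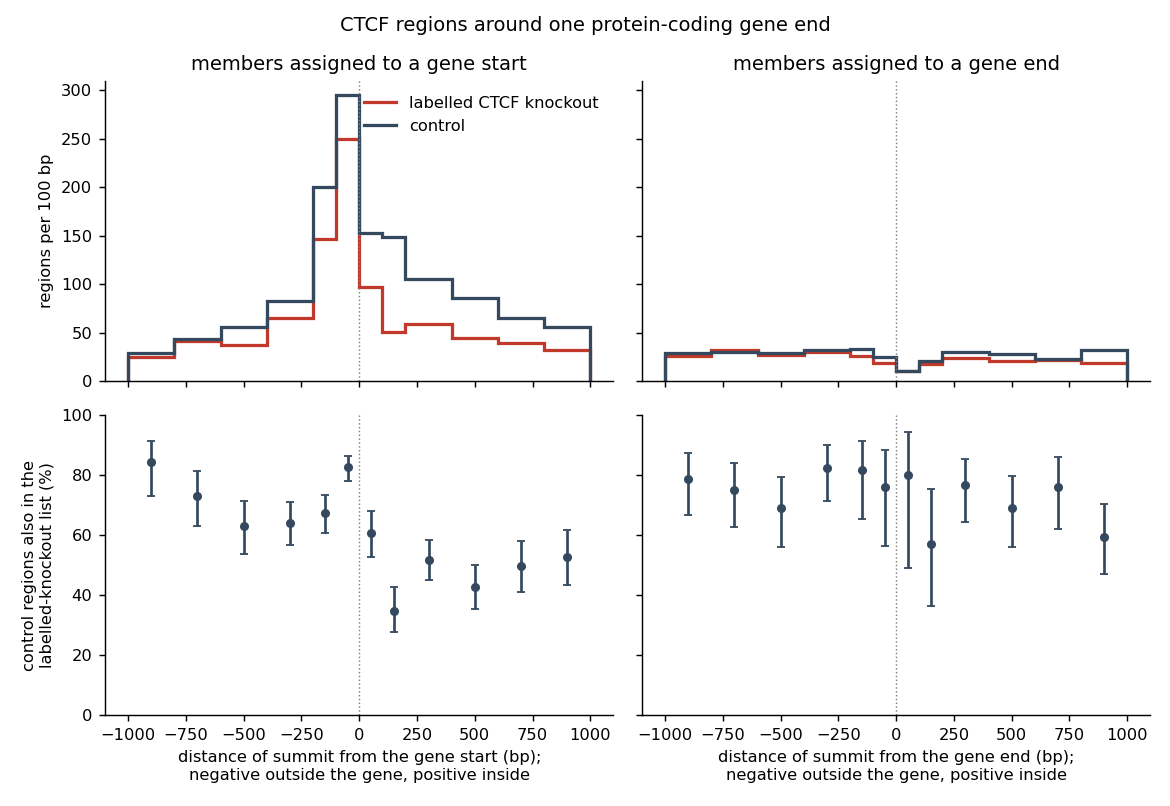
Regions at a single gene end by the distance of the summit from the gene start (left) or gene end (right), in bp, negative outside the gene and positive inside. The upper panels give the number of regions per 100 bp in the list labelled CTCF knockout and in the control list, and the lower panels the share of control regions, in percent, that were kept, with 95% Wilson intervals. Counts peak in the 100 bp before the start, at 250 in the list labelled knockout and 295 in the control, and the kept share is lowest, at 34.9%, between 100 and 200 bp inside the gene.

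Set against the rest of the control list, regions at a single gene end were kept less often. The kept share was 63.3% at a single gene end and 70.1% over all other control regions, a difference of -6.77 points (-8.62 to -4.95), and -6.70 (-8.19 to -5.20) after weighting over fold enrichment. It was below that of the other regions in 8 of 10 bins. The 435 control regions where 2 or more protein-coding gene ends met were kept at 66.0%, and the difference of -2.69 points had an interval that covers 0 (-7.31 to 2.18). The difference from regions with no protein-coding end within 1 kb was larger on the inner side of the gene boundary. Regions inside the gene were 17.0 points below them as counted (difference -17.0, -19.6 to -14.4) and 12.4 below after weighting (-12.4, -14.5 to -10.3). Regions outside the gene differed from them by 3.01 points as counted (0.66 to 5.26) and by -1.34 after weighting (-3.25 to 0.57). For regions outside a gene start alone the difference was 2.73 as counted (-0.32 to 5.60). After weighting it was -2.43 (-4.77 to -0.09), an interval below 0. Members with the end of a long non-coding RNA gene also within 1 kb were kept in 55.4% of 341 cases, against 64.3% of 2756 without one, a difference of -8.83 points (-14.4 to -3.34). Members with another control region within 5 kb were kept in 59.3% of 1043 cases, against 65.3% of 2054 with none. That difference of -5.94 points (-9.57 to -2.33) became -2.41 (-5.32 to 0.51) with weighting, an interval that covers 0.

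**Figure D4:**
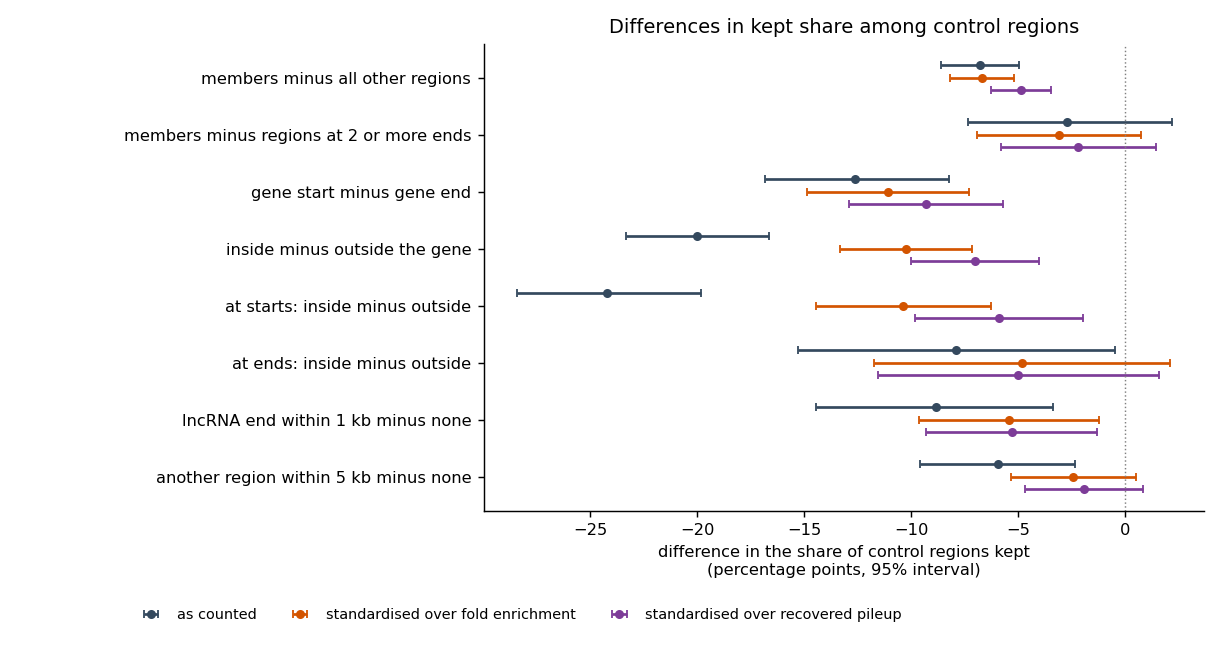
Differences in the share of control regions that were kept, in percentage points with 95% intervals, for 8 pairs of groups. Each pair is given as counted, weighted over 10 bins of control fold enrichment and weighted over 10 bins of recovered pileup. Inside minus outside the gene was -20.0 points as counted and -10.2 and -7.01 after the weightings, and regions at a single end minus regions at 2 or more ends has intervals that cover 0.

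The number of reads behind a region could be recovered from its fold enrichment and p-value, which gave the read pileup at the summit and the expected background. The lowest background, which scales with depth and fragment length, was 0.851 reads in the library labelled knockout and 1.006 in the control, a ratio of 0.846. Members had a median pileup of 15 reads in both lists, with a range of 7 to 258 in the list labelled knockout and of 6 to 256 in the control. The 3 members on the mitochondrial genome lay near the top of these ranges. Their median was 253 reads in the list labelled knockout and 209 in the control. Control members that were kept had a median of 19 reads, and those that were not had 10. At the 1960 kept pairs the pileup in the library labelled knockout was a median of 0.833 of that in the control (quartiles 0.684 and 1.00) and was the higher of the pair in 24.8% of them. At the 11872 kept pairs elsewhere the median was 0.875. Both medians lie near the ratio of the backgrounds. They cover only regions called in both libraries, so control regions with no call in the other library are left out. What part depth has in these medians was not tested. Weighting over pileup in place of fold enrichment left inside minus outside the gene at -7.01 points (-10.0 to -4.00) and inside minus outside at gene starts at -5.88 (-9.79 to -1.97). The shares moved with the strength and the reads of the regions, and what part depth has in the kept share was not tested.

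Where a region was kept, the summits of the 2 libraries lay close together. Kept regions overlap by definition, which limits this distance, and regions that did not overlap are not included. The distance between the summits in the 2 libraries had a median of 26 bp at the 1960 kept regions (quartiles 11 and 48), and 76.7% lay within 50 bp. It was also 26 bp for kept regions elsewhere in the genome. The summits moved by a median of 31 bp at starts inside the gene and 22 bp at starts outside it. In 1928 of the 1960 cases the labelled-knockout region was at a single end of the same gene.

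The strongest regions of all were kept. All of the 100 strongest control members were kept, and 366 members were stronger than the strongest one that was not. Strong control regions elsewhere were kept about as often. In the strongest of the 10 bins of control fold enrichment 99.3% of 441 members and 98.9% of 1579 other regions were kept. In the bin below it the shares were 94.3% of members and 96.7% of other regions. Of the 100 strongest members, 75 lay at a gene start, 7 at a gene end and 18 at an end of unknown strand, and 67 had the summit outside the gene. Over all control members 59.4% lay at a start, 17.8% at an end and 22.7% at an end of unknown strand, and 50.6% were outside. Fold enrichments from the 2 lists are given side by side in what follows, but no direction is read from them. Kdm3b, which encodes a histone H3 lysine 9 demethylase, had the strongest member, with 36.7 in the list labelled knockout and 41.4 in the control and a summit 124 bp outside the gene (chr18:34776557-34777528). Nsfl1c, which encodes the p47 cofactor of the p97 ATPase, had 21.0 in the list labelled knockout and 40.8 in the control with a summit 17 bp before its start (chr2:151494022-151494366). At Vps36, whose promoter is printed above, the values were 30.3 in the list labelled knockout and 33.6 in the control with a summit 54 bp before the start. The others of the 10 strongest were at Pkn3, a protein kinase gene, at Rapgef1 and Nipsnap2, at Sh3glb1, at Dnajc11, a mitochondrial J-domain protein gene, at Trrap, which encodes a scaffold of histone acetyltransferase complexes, and at Med4, a subunit gene of Mediator. Their fold enrichments ran from 17.4 (Dnajc11) to 25.9 (Nipsnap2) in the list labelled knockout and from 26.0 (Med4) to 33.4 (Pkn3) in the control. At Trrap the summit lay 952 bp inside the gene and at Pkn3 71 bp inside. Of these 10, 8 had the summit outside the gene, beside 1146 of all 1960 kept control members.

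The strongest members called only in the control were weaker than all of these. Galnt12, a gene for an enzyme of mucin-type O-glycosylation, led them at 12.5 in the control, from a pileup of 25 reads (exact Poisson interval 16.2 to 36.9), 809 bp inside the gene (chr4:47122152-47122373). Zfp282, a zinc finger gene, followed with 12.5 and 24 reads, 423 bp inside its start (chr6:47877454-47877826). Entpd2, which encodes an enzyme that degrades extracellular ATP, had 12.1 at 360 bp inside its end. Frmd6, a gene of the Hippo pathway, had 11.96, and Wdr18 and Rps6ka5, which encodes the kinase MSK1, 11.7 each. Kctd6 and Rpl34-ps1 had 11.5 each and Chp1, a gene for a calcineurin-like calcium-binding protein, 11.2. Hes1, which encodes a transcriptional repressor downstream of Notch, had 10.97, 591 bp inside the gene (chr16:30067086-30067313), and Ssr3 and Tomm20 shared that value. The summit lay inside the gene in 8 of these 12, namely Galnt12, Zfp282, Entpd2, Frmd6, Rps6ka5, Kctd6, Hes1 and Ssr3. Among all 1137 control members that were not kept, 717 had the summit inside the gene.

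Members called only in the list labelled knockout were few and weak. The strongest was at Rnf150, a RING finger gene, where it reached 11.9 from 21 reads, 5 bp inside the gene. Gdf5, which encodes a growth factor of joint formation, had 10.4 and 23 reads, and Htr1a, the serotonin 1A receptor gene, 10.3 and 18 reads. Fat4, an atypical cadherin gene, had 9.73 and 17 reads, and Znrf1, a ubiquitin ligase gene, 9.19 and 16 reads. The median pileup of the 235 such regions was 10 reads, against 16 for the labelled-knockout members that were shared.

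The Ctcf gene itself had 1 member in each list, and the 2 overlapped. Its summit lay 415 bp inside the start in the list labelled knockout and 370 bp in the control, with 10 reads in the library labelled knockout and 16 in the control. Region lists carry no RNA or protein level, so they do not check the deletion, and the library is called by its label throughout.

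Several genes held more than 1 member. In the control list 316 genes had 2 or more and 28 had 3 or more. Adamtsl5, a gene of the extracellular matrix, had 2 in the list labelled knockout and 4 in the control, and 2 of its 4 control members were kept. At Ankle1, a gene for a DNA endonuclease, none of 3 control members was kept, with 16, 10 and 8 reads, and the list labelled knockout had none. Of 97 genes with control members at both ends, 44 had kept ones at both. That count needs a kept member at each end, so it cannot be set directly against the 63.3% of single control members. Genes whose control members were all kept had a median length of 19.96 kb, and those with none kept 30.9 kb, against 17.1 kb over all protein-coding genes.

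Members at genes of heart muscle were spread over both classes. The lists used were 17 gene lists with 698 matched symbols and 27 families taken by symbol, a rule that can also take in partner genes such as Rab3ip among the Rab genes. Of 43 sarcomere and Z-disc genes, 2 (4.65%) had a member in the list labelled knockout and 2 in the control, beside 9.32% and 12.6% over all protein-coding genes. Of the 2 control members 1 was kept, and 1 of the 2 labelled-knockout members overlapped no control region. Myl2, the ventricular regulatory light chain gene, had a kept member 989 bp beyond its end, with 7.80 in the list labelled knockout and 6.98 in the control. The control member at Tnnt2, the cardiac troponin T gene, with 3.88 and 8 reads, was not kept. Of 47 genes of calcium handling and ion channels, 8 had a member in the list labelled knockout and 10 in the control, and 7 of 12 control members were kept (58.3%, 32.0 to 80.7, beside 63.3% of all). Kcnip2, which encodes a subunit of the transient outward potassium current, had a kept member with 6.48 in the list labelled knockout and 10.2 in the control, while the control members at Adrb1, the main cardiac beta-adrenergic receptor gene, with 4.99, and Itpr2, with 5.78, were not kept. For fatty acid and glucose metabolism 8 of 12 were kept (66.7%, 39.1 to 86.2), among them Ppard, a nuclear receptor gene, with 11.3 in the list labelled knockout and 15.5 in the control, and Slc2a4, which encodes the insulin-responsive glucose transporter, with 9.51 in the list labelled knockout and 12.8 in the control. Cpt1a, which encodes a carnitine palmitoyltransferase, had a control member of 8.59 just inside its start that was not kept.

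Kept shares varied among lists of transcription factors, signalling and chromatin genes, beside 63.3% of all control members. For cardiac transcription factors 6 of 12 control members were kept, including those at Tbx2 (12.7 in the list labelled knockout and 12.01 in the control) and Gata6 (7.69 in the list labelled knockout and 10.4 in the control), while those at Tbx3 (9.06) and Tbx18 (6.48) were not. For fetal and stress genes 7 of 12 were kept. Gdf15, a stress-induced cytokine gene, had 24.7 in the list labelled knockout and 24.0 in the control, 534 bp inside its end, and the control members at Tgfb1 (6.87) and Myc (6.31) were called in the control only. For Wnt, Notch, Hedgehog and TGF-beta signalling 9 of 21 were kept (42.9%, 24.5 to 63.5), for kinases of hypertrophic signalling 11 of 22 (50%, 30.7 to 69.3), and for chromatin modifiers 8 of 16 (50%, 28.0 to 72.0). For CTCF, cohesin and loop factors 4 of 8 were kept, with Esco1, a cohesin acetyltransferase gene, at 15.1 in the list labelled knockout and 21.8 in the control, and Smc3, a cohesin core subunit gene, at 10.6 in the control only. Zinc finger genes kept 32 of 57 (56.1%, 43.3 to 68.2), homeobox cluster genes 4 of 5, Sox genes 3 of 5 and forkhead genes 3 of 6. The intervals of all these lists cover the 63.3% of all members.

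Ribosomal protein genes were among the groups with the most members. Of 80 cytosolic ribosomal protein genes, 23 (28.8%) had a member in the list labelled knockout and 24 (30.0%) in the control, beside 9.32% and 12.6% over all protein-coding genes. Of their 30 control members 21 were kept (70.0%, 52.1 to 83.3), among them those at Rpl22, with 12.8 in the list labelled knockout and 19.5 in the control, and at Rps14, with 16.5 in the list labelled knockout and 17.3 in the control. Among mitochondrial ribosomal protein genes 11 of 15 members were kept, among complex I subunit genes 6 of 7, and among DEAD and DEAH box helicase genes, which encode RNA-unwinding enzymes, 10 of 12 (83.3%, 55.2 to 95.3). At imprinted genes 5 of 5 were kept (56.6 to 100%), including H13 with 11.9 in the list labelled knockout and 6.76 in the control, 11 bp before its start. For each of these groups the interval of the kept share covers the 63.3% of all control members. Olfactory receptor genes were nearly free of members, with 1 of 1110 genes in the list labelled knockout and 4 in the control, none of the 4 kept, and vomeronasal receptor genes had 2 of 355 in each list. The 4 olfactory control members were weak, with a median fold enrichment of 4.99. Of all control members in the bin of 4.49 to 5.18, 23.7% were kept. Of 12 marker genes of cardiac myocytes, 1 (8.33%) had a member in the list labelled knockout and 2 (16.7%) in the control. The control member at Pln was kept, with 6.48 in the list labelled knockout and 9.47 in the control, and that at Tnnt2 was not. Among markers of other cell types, the 8 endothelial genes had no member in either list. The 9 genes of fibroblasts, the 8 of immune cells and the 7 of smooth muscle and pericytes had 1 kept member per list of markers. The fibroblast gene Pdgfra also had a control member, with 6.47 and 14 reads, that was not kept. The kept ones were at Col1a1 (18.5 in the list labelled knockout and 22.4 in the control), Spi1 (16.4 in the list labelled knockout and 19.3 in the control) and Myh11 (6.97 in the list labelled knockout and 5.88 in the control). Region lists of one factor do not give the makeup of the cells, and the part of other cell types in these regions was not tested.

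**Figure D5:**
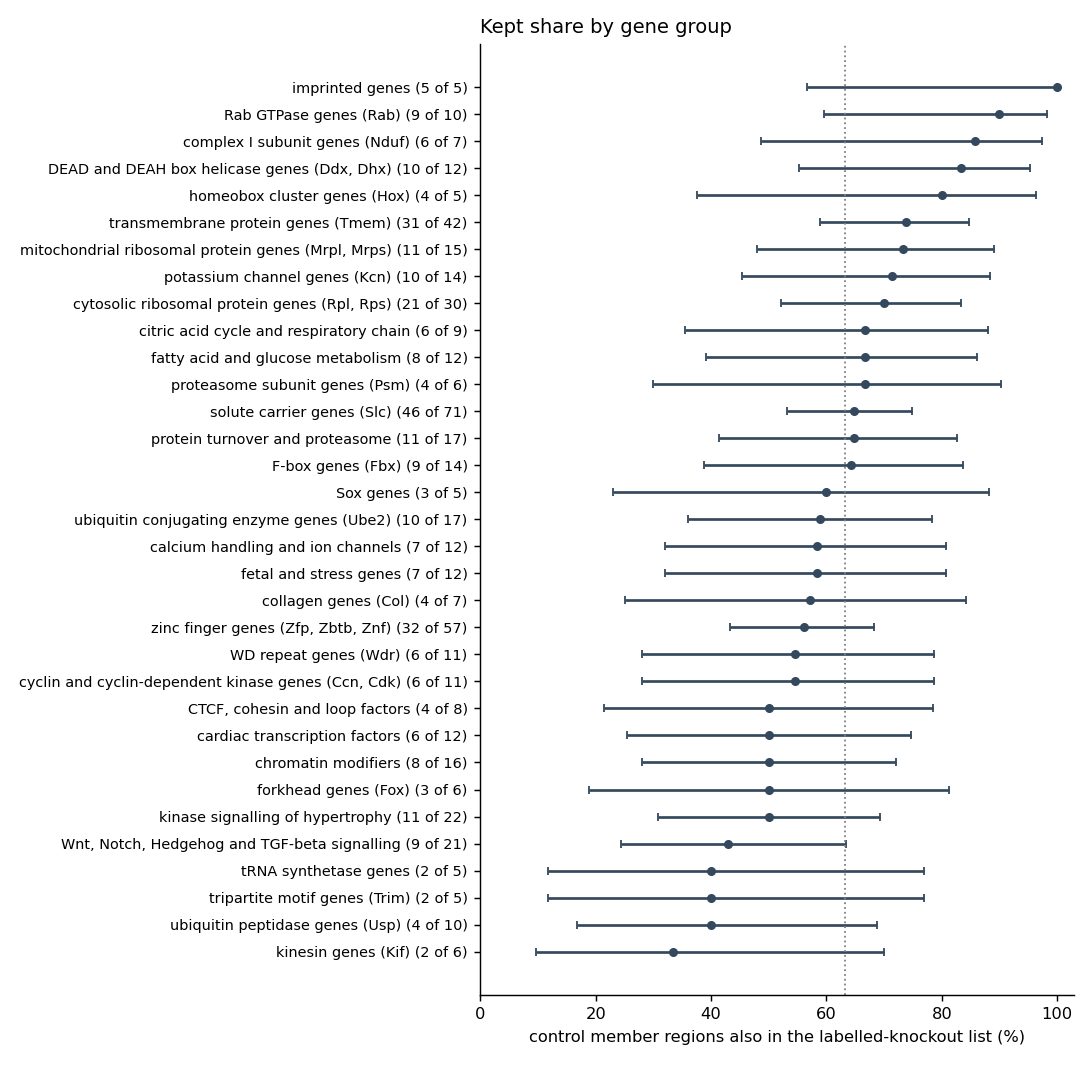
Share of control members, in percent with 95% Wilson intervals, that were kept, for the 33 gene lists and families with at least 5 control members. The numbers kept and in all are beside each name, and the dotted line is the 63.3% of all control members. Each of the 33 intervals crosses the line.

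Members were found on all chromosomes. Over the autosomes the kept share lay between 56.4% on chromosome 9 (92 of 163) and 68.1% on chromosome 4 (128 of 188), and on the X chromosome 23 of 39 control members were kept (59.0%, 43.4 to 72.9). The mitochondrial genome held 3 members in each list. At the outer limit of the distance rule, the members at Rps10 (999 bp), Sorcs2 (999 bp) and Wnk2 (998 bp) had control fold enrichments of 8.97, 8.47 and 5.48, and the regions just beyond it at Trim55 (1002 bp), Tmtc2 (1002 bp) and Ints6l (1003 bp) had 6.04, 14.1 and 5.48. The first 2 on each side of the limit were kept and the third was not.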

How the data were processed

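CTCF regions came from the deposited peak lists of 2 ChIP-seq libraries. The build was mm10 and the tools were MACS2, SAMtools 0.1.19 and Bowtie2 2.2.6, per the submitters' processing notes, which here give no version or settings for MACS2. There was 1 list per library. Each deposited region has a fold enrichment (a ratio to local background), a score, a −log10 p, a −log10 q and a summit offset. The score, as deposited, was 10 times the −log10 q without its decimals in 100% of regions.

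Summits were moved to 1-based positions; without this the list labelled knockout would hold 2202 members and the control 3097. Gene ends came from RefSeq (GRCm38.p6), and strand and sequences from its promoter table, which covered 79.9% of protein-coding genes. "Inside" means within the gene span. Overlap of at least 1 bp counted as kept. Intervals were Wilson for shares, Newcombe for differences and normal for differences weighted over 10 bins. Pileup and background were solved from the deposited fold enrichment and −log10 p by the formula of MACS2, and a whole pileup gave the −log10 p within 0.001 for 100% of regions. The weighting was tested on simulated data with known differences. The recovery was tested on data simulated with the same formula, which checks the calculation and not whether deposited values follow that formula. Depth is otherwise unknown, and intervals cover counting error only.

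Named members were the 10 strongest kept, the 10 strongest called only in the control (with ties), the 5 strongest called only in the list labelled knockout, up to 2 genes per list and class, genes with at least 3 members, and 3 on each side of the distance limit; a few of these are not reported here. Family members were named the same way, up to 3 per class. The sequences printed, Ctcf and the H13 and Rab3ip examples were chosen after their values were seen. The members, gene lists and comparisons were chosen with earlier results of these data known. Software was Python 3.11.15 with scipy 1.17.1, numpy 2.4.6, matplotlib 3.10.9 and pandas 2.3.3.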

Additional observations from a re-analysis of the deposited data

How the results depend on the processing

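No paired analysis was possible because there was a single library of each genotype, and for the same reason no library could be left out. Of 119 values under other settings, 86 stayed within the counting interval of the reported value (or within 1.5 times, for numbers of regions), 33 moved out of it and none of the differences whose interval excluded 0 changed direction. Weighting over recovered pileup was added after the data were seen; the other settings were planned. With a −log10 q of at least 5 in both lists, 69.4% of control members were kept. The differences were then -2.59 points from all other regions (-4.92 weighted), -2.57 from regions at no end (-4.97 weighted), -12.4 inside minus outside (-6.97 weighted), -4.87 start minus end, whose interval reached 0.11 (-7.04 weighted), and -15.8 inside minus outside at starts. With a fold enrichment of at least 5, 68.3% were kept and 12.3% of labelled-knockout members had no control region, and these differences as counted were -3.50, -3.56, -14.1, -6.04 and -18.1. With lists of equal length 74.5% were kept and 17.2% had no control region, and the differences from all others were -3.26 (-4.55 weighted) and from no end -3.24 (-4.58 weighted). Reciprocal overlap of at least 50% gave 53.0% kept and 25.5% with no control region, and summits within 100 bp gave 58.5% and 17.8%. Counting long non-coding ends too turned the difference from regions at 2 or more ends to 2.24, with an interval (-1.51 to 6.08) that covers 0, as did the reported one. Weighted over pileup, the differences were -4.87 from all others, -4.95 from no end, -7.01 inside minus outside and -5.88 at starts. The 7-letter pattern was in 85.1% of kept windows. For all of these, the cause was not tested. Region lists start at a q of 0.05, so a region that is not kept may still have signal under that limit.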
